A study of Mus musculus with 20 samples.

Results

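Chemokines and chemokine receptors were read from 67 array probes for 51 gene names, of 41174 probes that are not controls. The members were chosen by name alone: every probe whose gene name in the scanner files starts with Ccl, Cxcl, Cx3cl, Xcl, Ccr, Cxcr, Cx3cr or Xcr directly followed by a number. They comprised 45 probes for 35 ligands and 22 probes for 16 receptors. A probe was tested in a tissue when the scanner software marked it as well above background on 4 or more of its 10 arrays, which 42 member probes (35 genes) passed in liver and 58 (44 genes) in white adipose tissue (WAT). Both tissues had 41 of them in common, Cxcl11 passed in liver only, and 17 probes passed in WAT only. The remaining 8 probes passed in neither tissue (Ccl1, Ccr1, both probes of Ccr4, Ccr8, Cxcl5 and both probes of Cxcl15).

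The study compared wild-type (WT) mice with staggerer mice (RORasg/sg, here sg/sg), in which part of Rora, encoding the nuclear receptor RORα, is deleted by a spontaneous mutation. All were male C57BL/6 mice, 5 months old, and all had eaten a high fat diet (35% fat) for 6 weeks, so no group on a standard diet enters any comparison. Total RNA of liver and of WAT was labelled with Cy3 and hybridised to 1-colour Agilent mouse genome arrays, 5 arrays for each genotype and tissue. The staggerer deletion is present in every cell of the animal, and neither the fat depot nor a sorted cell fraction is named in the labels, so each value is the average of a whole tissue. In such bulk RNA, fewer cells of a type and less RNA per cell cannot be told apart.

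Chemokines are small secreted proteins that set up gradients and direct the movement of leukocytes, which carry the matching G protein-coupled receptors. CC and CXC chemokines are named for the spacing of their first cysteines, and inflammatory members such as Ccl2 recruit monocytes and neutrophils while homeostatic members such as Cxcl12, Ccl19 and Cxcl13 place cells in bone marrow and lymphoid tissue. In adipose tissue of obese animals, Ccl2 and its receptor Ccr2 are known for their part in the recruitment of macrophages.

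Levels are given as log2 of the spot's processed signal minus the array's 75th percentile of the same, so 0 is the level of that percentile and negative values are dimmer. Differences are sg/sg minus WT on the log2 scale with the standard error (SE) of the limma fit, n = 5 per genotype, and a probe is called changed when the limma p, adjusted by Benjamini-Hochberg over all probes tested in the tissue, is under 0.05. The 75th percentile of the signal lay between 817 and 1089.9 in liver of WT mice (sg/sg, 648 to 901) and between 1936 and 2598 in their WAT (sg/sg, 1352 to 2052.5), and no member probe was saturated. All 3 probes of Rora were lower in sg/sg mice in both tissues, by medians of -2.86 in liver and -2.73 in WAT, and the files do not place these probes inside or outside the deletion. In liver, 1 of them never rose well above background on the sg/sg arrays and was at least 2.12-fold lower. Liver slides were nearly confounded with genotype: 4 of 5 WT arrays were on slide 1, 2 sg/sg arrays on slide 3, and only slide 2 held both (1 WT and 3 sg/sg arrays). All 3 WAT slides held both genotypes.

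In WAT of sg/sg mice a large share of the family was lower. Of 58 member probes, 23 (20 genes) were lower, 3 (3 genes) were higher and 32 were not called. Of all 32315 probes tested in WAT, 21.9% were called, 9.14% lower and 12.8% higher, against 44.8% of the members. The median difference of the members was -0.28, beside 0.08 over all probes, with 36 member probes below 0 and 22 above. The genotypes did not overlap on 20 member probes that were lower and 2 that were higher, where 8.71% and 12.1% of all tested probes did not overlap in these directions. The median of the receptors (-0.74, 18 probes) was below that of the ligands (-0.26, 40 probes), with 10 receptor probes lower and 1 higher, and 13 ligand probes lower and 2 higher. Quantile normalization (23 lower, 2 higher) and median scaling (24 lower, 2 higher) kept this direction, whereas with normexp background correction 10 were lower and 1 higher, the members' median was 0.08 and that of all probes 0.49. Calls over all 32315 probes also fell with normexp, from 2954 to 716 lower and from 4129 to 776 higher.

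**Figure D1:**
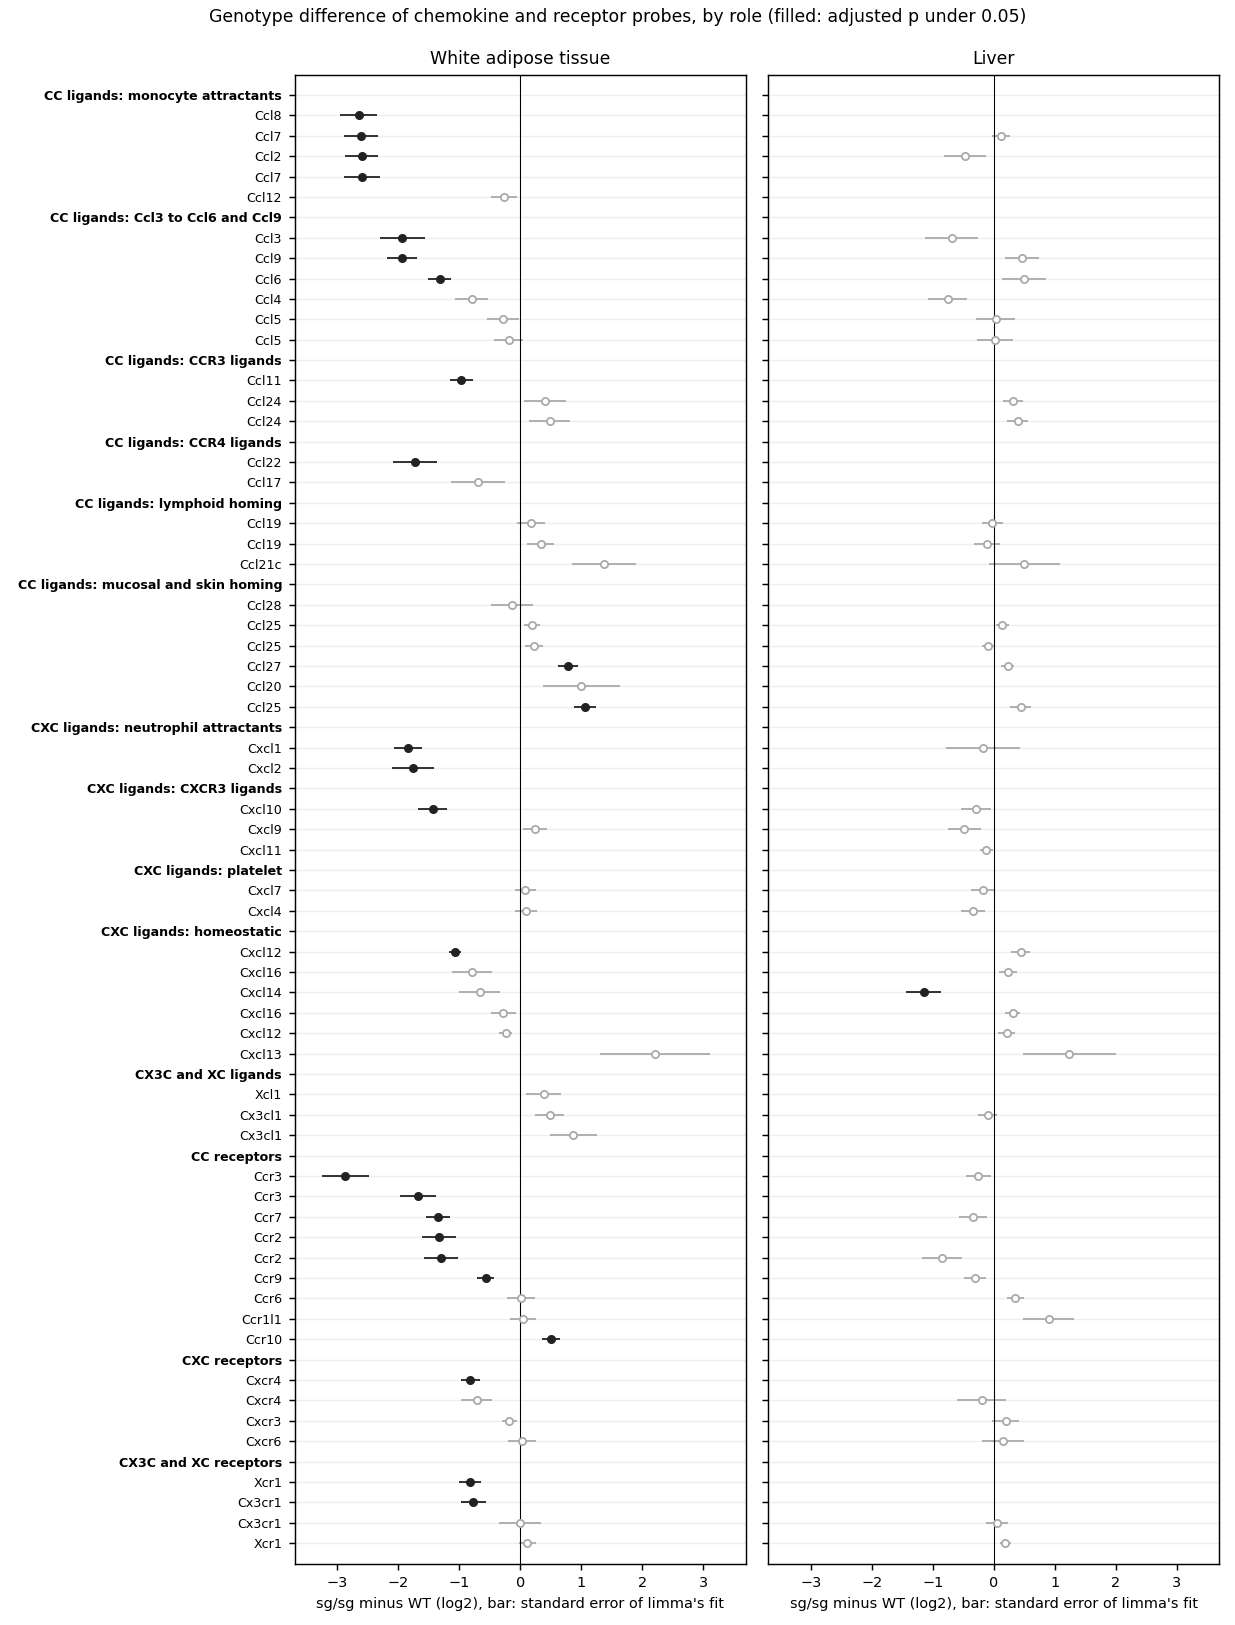
Difference between sg/sg and WT mice (log2, x axis, with the SE of the limma fit) for the member probes drawn, in WAT (left) and liver (right), ordered by role on the y axis; filled points have an adjusted p under 0.05 and open points do not. In WAT 22 filled points lie below 0 (of 23 probes called lower) and 3 above, and in liver the only filled point is Cxcl14. With normexp background correction 10 WAT member probes were called lower and 6 of the 23 turned above 0. Lower calls among all WAT probes fell from 2954 to 716 with it.

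Among ligands, the lowest differences belonged to those that draw monocytes. Ccl2, the main ligand of Ccr2, had levels of 4.82, 4.07, 3.41, 4.40 and 4.03 in WT mice, against 1.02, 1.50, 1.89, 1.28 and 2.03 in sg/sg mice. Every sg/sg array was lower than every WT array, and the difference was -2.60 (SE 0.27, 6.08-fold, limma adjusted p = 6.6e-04). Ccl8, also a monocyte attractant, read 4.12, 3.90, 4.59, 3.56 and 3.47 in WT mice, against 0.57, 1.58, 1.82, 0.78 and 1.65 in sg/sg mice, again without overlap. Its difference was -2.65 (SE 0.30, 6.28-fold, limma adjusted p = 7.4e-04). Ccl7, another ligand of Ccr2, was measured by a pair of probes that gave the same answer. The first read 1.85, 0.89, 0.56, 1.60 and 1.35 in WT mice, against -1.85, -1.64, -1.04, -1.46 and -0.82 in sg/sg WAT. The other read 2.54, 1.65, 1.22, 2.38 and 2.01 in WT mice, against -1.15, -1.07, -0.29, -0.58 and -0.08 in sg/sg WAT. All WT values of Ccl7 lay above all sg/sg values, with differences of -2.61 (SE 0.28) and -2.60 (SE 0.29; limma adjusted p = 6.6e-04 and 7.6e-04). Ccl12, the remaining member of this group, was at -0.27 (SE 0.21) and was not called. Within slides 4, 5 and 6 Ccl2 differed by -2.73, -2.07 and -3.22, Ccl8 by -3.18, -1.73 and -3.16, and the first Ccl7 probe by -2.76, -2.28 and -3.1.

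These ligands sit side by side on chromosome 11. The probes of Ccl2, Ccl7, Ccl11, Ccl12, Ccl8 and Ccl1 lie within chr11:82118723-82258468 (probe positions of build mm7, from the array files), and 5 of the 6 probes tested there in WAT were lower, with a median of -2.60. Ccl11, eotaxin, which attracts eosinophils through Ccr3, read 3.18, 2.24, 3.19, 3.14 and 3.20 in WT mice, against 1.94, 1.91, 2.07, 2.20 and 2.01 in sg/sg mice, a difference of -0.97 (SE 0.19, limma adjusted p = 0.00572). The groups did not overlap, although WT replicate 2 was low and came close to the highest sg/sg array. A neighbouring cluster at chr11:83595699-83734514 holds the probes of Ccl5, Ccl9, Ccl6, Ccl3 and Ccl4, and 3 of its 6 probes were lower (median -1.06). Of all probes tested in WAT 9.14% were lower. The start of each 60-base probe shows which stretch the array read (first 30 bases, build mm7).
Ccl2, chr11:82118723-82118782, plus strand: tgtaggagtgaccagtgtgacagtgaacta
Ccl8, chr11:82198181-82198240, plus strand: accagaagtctcaaattctgcagccttgaa

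The CC ligands Ccl3 to Ccl6 and Ccl9 split. Ccl9, a myeloid cell attractant, read 5.34, 5.12, 4.28, 4.21 and 4.51 in WT mice, against 2.32, 2.79, 2.98, 2.65 and 2.99 in sg/sg WAT. Its genotypes did not overlap and differed by -1.94 (SE 0.24, 3.85-fold, limma adjusted p = 0.00104). Ccl6 was lower by a similar pattern, from 4.96 to 5.83 in WT and from 3.44 to 4.24 in sg/sg mice (-1.32, SE 0.19, limma adjusted p = 0.00186). Ccl3, the inflammatory protein MIP-1α, ranged from -2.18 to -0.08 in WT and from -3.73 to -2.80 in sg/sg mice (-1.94, SE 0.37, limma adjusted p = 0.00542). Its neighbour Ccl4 was at -0.80 (SE 0.27) and missed the threshold (limma adjusted p = 0.0608). Ccl5, which T cells and platelets also make, was at -0.29 (SE 0.26) and -0.19 (SE 0.24) on its probes, and its genotypes overlapped on both.

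Among CXC ligands, Cxcl1 and Cxcl2, of the group listed here as neutrophil attractants, were lower. Both calls were lost with normexp background correction. Cxcl1 read -2.33, -1.45, -2.46, -1.93 and -1.86 in WT mice, against -4.21, -4.00, -3.97, -3.85 and -3.23 in sg/sg WAT. These values did not overlap and differed by -1.85 (SE 0.23, 3.60-fold, limma adjusted p = 0.00105). Cxcl2 was at -1.76 (SE 0.34, limma adjusted p = 0.006), on a dim probe that was well above background on all 5 WT arrays and on 3 of 5 sg/sg arrays. The other members of that group, Cxcl5 and Cxcl15, were not tested. Cxcl10, which attracts activated T cells through Cxcr3, ranged from -0.47 to 0.32 in WT and from -1.94 to -1.02 in sg/sg mice (-1.44, SE 0.24, limma adjusted p = 0.00287), whereas Cxcl9, a ligand of the same receptor, was at 0.24 (SE 0.19) and not called. The platelet chemokines Cxcl4 (now Pf4) and Cxcl7 (now Ppbp) were at 0.09 (SE 0.18) and 0.08 (SE 0.17).

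Cxcl1, Cxcl2 and Cxcl10 have known NF-κB sites in front of their start sites, and their upstream sequences are shown for that reason beside the lowered levels. Each is the 250 bases before the start in the RefSeq promoter table (build GRCm38.p6), printed on the strand of the gene. Capitals mark matches on either strand to the NF-κB consensus, which 4.46% of the 27025 genes in that table hold within these 250 bases. It was also matched in front of Ccl9 and Ccr3, which were lower in WAT, and of Ccl20 and Ccr6, which were not called. No match stood in front of Ccl8, Ccl6, Ccl3, Ccl22, Cxcl12, Ccr2, Ccr9, Cxcr4, Cx3cr1 and Xcr1, which had lower probes. Ccl2, Ccl7, Ccl11 and Ccr7 were among the lowered genes without an entry. In Cxcl10 capitals also mark GAAAGTGAAA, a match to the interferon-stimulated response element (GAAA, any 2 bases and GAAA again, on either strand, in 3.46% of genes), which overlaps no NF-κB match.
Cxcl1, chr5:90890995-90891244, plus strand: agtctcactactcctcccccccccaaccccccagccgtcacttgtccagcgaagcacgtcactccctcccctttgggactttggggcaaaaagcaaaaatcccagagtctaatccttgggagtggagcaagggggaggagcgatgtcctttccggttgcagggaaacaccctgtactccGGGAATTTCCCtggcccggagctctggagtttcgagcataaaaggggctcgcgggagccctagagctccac
Cxcl2, chr5:90903649-90903898, plus strand: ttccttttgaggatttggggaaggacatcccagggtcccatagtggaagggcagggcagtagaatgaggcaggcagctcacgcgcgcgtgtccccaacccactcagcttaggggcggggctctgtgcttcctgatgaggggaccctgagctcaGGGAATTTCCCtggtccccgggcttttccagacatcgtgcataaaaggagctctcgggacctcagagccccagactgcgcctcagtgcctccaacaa
Cxcl10, chr5:92348890-92349139, minus strand: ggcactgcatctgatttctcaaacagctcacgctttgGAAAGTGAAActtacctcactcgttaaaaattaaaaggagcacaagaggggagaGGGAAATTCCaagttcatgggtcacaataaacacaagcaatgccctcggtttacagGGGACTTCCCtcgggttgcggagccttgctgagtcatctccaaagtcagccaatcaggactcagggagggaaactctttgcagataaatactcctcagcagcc
The capital run is the same in Cxcl1 and Cxcl2 and begins 71 and 97 bases before the start. A match to the ROR response element, an A/T-rich stretch followed by AGGTCA or a close form of it, stood in this window in 0.396% of genes. Of members tested in WAT it was found in front of Ccl17 and Ccr6, neither of which was called (Ccl17 -0.69, SE 0.44; Ccr6 0.01, SE 0.23). In Ccl17 it begins 28 bases before the start.
Ccl17, chr8:94810203-94810452, plus strand: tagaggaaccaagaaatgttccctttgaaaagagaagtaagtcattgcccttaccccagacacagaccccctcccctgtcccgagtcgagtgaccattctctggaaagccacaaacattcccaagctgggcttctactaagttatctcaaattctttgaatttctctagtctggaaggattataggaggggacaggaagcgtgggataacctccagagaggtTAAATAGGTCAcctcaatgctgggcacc
Only 15 of the 20 genes that were lower in WAT had an entry in the table, under the 80% set for a share over a gene set, so none is given. A match of letters is not a measured binding site.

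Of 6 probes for homeostatic CXC ligands 1 was called, lower, and 4 had an unadjusted p under 0.05. Their median was -0.48, with 5 of 6 below 0 and a range of -1.07 to 2.20. The called probe was one of Cxcl12, the retention signal for cells with Cxcr4, and had the smallest p of all members. It read 1.69, 1.55, 1.62, 1.56 and 1.42 in WT mice, against 0.60, 0.54, 0.60, 0.21 and 0.56 in sg/sg WAT. The spread within each genotype was small and the groups lay far apart (-1.07, SE 0.10, 2.09-fold, limma adjusted p = 5.0e-04). The other Cxcl12 probe read 3.85, 4.01, 4.14, 4.18 and 3.83 in WT mice, against 3.73, 3.86, 3.81, 3.54 and 3.86 in sg/sg mice, where the groups overlapped (-0.24, SE 0.11, limma adjusted p = 0.141). The files tie these probes to different RefSeq transcripts of Cxcl12, and they lie apart on chromosome 6 of mm7, so the call holds for the sequence under the first one.
Cxcl12, lower in sg/sg WAT, chr6:117200799-117200858, plus strand: gaattaatcataaacggaagtttaaatgag
Cxcl12, not called, chr6:117207552-117207611, plus strand: aggagaaggcagcttcctatatgcagcgtg
Cxcl14 was at -0.67 (SE 0.33, limma adjusted p = 0.176) in WAT, and the probes of Cxcl16 were at -0.79 (SE 0.33) and -0.28 (SE 0.20).

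**Figure D2:**
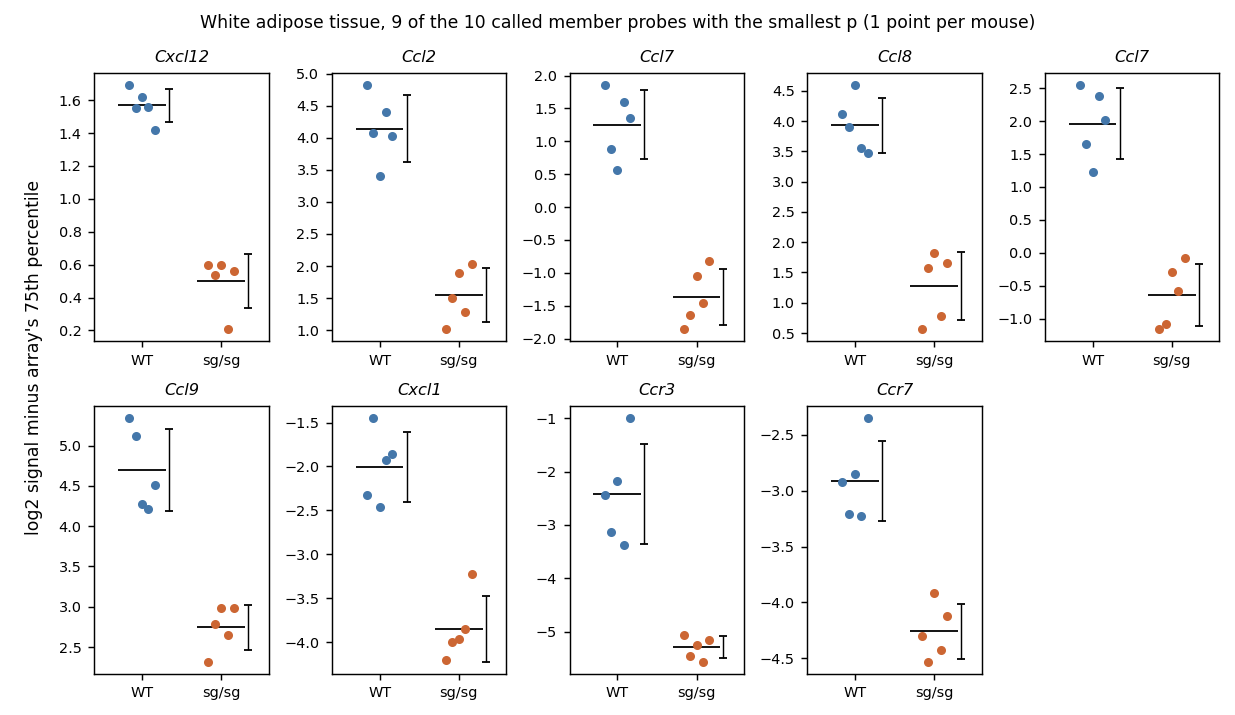
WAT levels (y axis, log2 signal minus the array's 75th percentile, each panel on its own scale) of 9 of the 10 called member probes with the smallest p, 1 point per mouse, with the mean (line) and SD (bar) of 5 WT and 5 sg/sg mice. On all 9 probes drawn every sg/sg point lies below every WT point, and Cxcl12 has the tightest groups; with normexp background correction Cxcl1, Ccr3 and Ccr7 of these kept a lower mean but lost their call.

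Of 18 receptor probes tested in WAT, 10 were lower too. Ccr3, the eotaxin receptor of eosinophils, gave the largest difference of any member in WAT: levels of -2.44, -3.13, -2.17, -3.38 and -1.0 in WT mice, against -5.06, -5.45, -5.25, -5.56 and -5.15 in sg/sg mice. The groups were more than 1 unit apart at their nearest arrays (-2.87, SE 0.39, 7.30-fold, limma adjusted p = 0.00138), and the second Ccr3 probe was at -1.68 (SE 0.29, limma adjusted p = 0.00338). Ccr7, which guides dendritic cells to lymph nodes along Ccl19 and Ccl21, read -2.92, -3.21, -2.85, -3.23 and -2.35 in WT mice, against -4.30, -4.53, -3.92, -4.43 and -4.12 in sg/sg WAT, again without overlap (-1.35, SE 0.19, 2.54-fold, limma adjusted p = 0.00149).

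Ccr2, the monocyte receptor of Ccl2, was lower on both of its probes, although the genotypes overlapped. The first read 2.05, 0.92, 2.18, 2.23 and 2.14 in WT mice, against 0.26, 0.55, 1.03, 0.15 and 1.03 in sg/sg mice (-1.30, SE 0.28, limma adjusted p = 0.0101), and the other differed by -1.33 (SE 0.28, limma adjusted p = 0.00855). The overlap came from WT replicate 2, the low WT array on both probes. Cxcr4, the receptor of Cxcl12, was at -0.82 (SE 0.15, limma adjusted p = 0.00421, no overlap) on one probe and at -0.72 (SE 0.26, limma adjusted p = 0.0703) on the other, where sg/sg replicate 4 stood high at -1.25. Ccr9, a gut homing receptor, was lower by a small amount (-0.57, SE 0.14, limma adjusted p = 0.0152). Ccr6, Ccr1l1, Cxcr3 and Cxcr6 lay between -0.18 and 0.04 and were not called.

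Receptors with a pair of probes did not always agree between them. Xcr1, a receptor of cross-presenting dendritic cells, was at -0.83 (SE 0.18, limma adjusted p = 0.0109) on one probe and at 0.11 (SE 0.14) on the other. Cx3cr1, the fractalkine receptor of monocytes, was at -0.77 (SE 0.21, limma adjusted p = 0.0248, overlapping) on one probe and at -0.01 (SE 0.34) on the other. In all, 13 member genes had more than 1 probe tested in WAT. On 12 of them the probes shared a sign, all probes were called for Ccl7, Ccr2 and Ccr3, some for Cxcl12, Cxcr4, Cx3cr1, Xcr1 and Ccl25, and none for the other 5. The receptor cluster at chr9:123499521-123827765 (mm7), with the probes of Ccr9, Cxcr6, Xcr1, Ccr1, Ccr1l1, Ccr3 and Ccr2, had 6 of 9 tested probes lower and a median of -0.83, beside 9.14% lower of all WAT probes.

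Only 3 member probes were higher in sg/sg WAT. Ccl27 (now Ccl27a), a chemokine of skin that acts through Ccr10, ranged from -1.17 to -1.0 in WT and from -0.95 to 0.00 in sg/sg mice (0.78, SE 0.17, 1.72-fold, limma adjusted p = 0.0116). It has near-identical copies in the mouse genome, so the gene of origin is uncertain. Ccl25, a thymus and gut chemokine that acts through Ccr9, was higher on a dim probe (from -5.83 to -4.94 in WT and from -4.60 to -4.00 in sg/sg mice; 1.06, SE 0.18, limma adjusted p = 0.00302). The other probes of Ccl25 were at 0.19 (SE 0.13) and 0.22 (SE 0.15), and the higher probe stands at chr8:4299246-4299305 (mm7), before the positions of both. Ccr10 was at 0.50 (SE 0.15, limma adjusted p = 0.0403) with overlapping genotypes. Its call was lost when any 1 of WT replicates 1 to 4 or sg/sg replicates 1 to 3 was left out (limma adjusted p from 0.0581 to 0.094), and within slide 5 the difference was -0.02. The call of Cx3cr1 was lost without WT replicate 2, WT replicate 4 or sg/sg replicate 2 (limma adjusted p from 0.052 to 0.0582). The other 24 called probes kept their call whichever WAT array was left out.

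The 4 largest WAT differences that missed the threshold were all above 0. For Cxcl13 and Ccl20, 1 sg/sg array stood far from the others. Cxcl13, which draws B cells into follicles, read -3.35, -1.90, -2.53, -1.83 and -2.88 in WT mice, against -0.71, -1.12, 3.45, -0.83 and -2.27 in sg/sg mice (2.20, SE 0.90, limma adjusted p = 0.11). The level of sg/sg replicate 3 stood far above the rest. Its receptor, listed on the array as Blr1 (now Cxcr5), was higher, from -4.67 to -3.34 in WT and from -3.27 to -2.20 in sg/sg mice without overlap (1.06, SE 0.27, limma adjusted p = 0.0212). Ccl21c, which shares its sequence closely with other Ccl21 copies, read 0.76, 2.85, 1.15, 2.27 and -0.32 in WT mice, against 3.09, 2.46, 2.95, 2.07 and 3.0 in sg/sg mice (1.37, SE 0.53, limma adjusted p = 0.0905). The WT spread was wide, and WT replicates 2 and 4 lay among the sg/sg arrays. Ccl21c was called, higher, with slide as a fixed block and also without WT replicate 2. Ccl20 was at 1.0 (SE 0.63) with sg/sg replicate 1 at -4.15 and all other arrays at -7.18 or lower, and was well above background on 1 WT and 3 sg/sg arrays. Cx3cl1, the membrane-bound fractalkine, was at 0.87 (SE 0.38) on its dim probe and at 0.48 (SE 0.24) on the other, which was called, higher, without WT replicate 2.

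Ligands and their receptors are set side by side here for 4 pairs. Ccl2 and Ccr2 were both lower, as were Cxcl12 and Cxcr4 on 1 of their probes each. Ccr7 was lower while its ligand Ccl19 was at 0.33 (SE 0.22) and 0.18 (SE 0.23) on probes that can also read Ccl19 copies. For Cx3cl1 and Cx3cr1, the ligand was above 0 on both probes without a call and 1 of the receptor's probes was lower.

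The lower calls held across most ways of processing, with background correction as the exception. With normexp background correction 11 of the 26 probes kept their call, among them Ccl2, both Ccl7 probes, Ccl8, Ccl9, Ccl6, Ccl11, the Cxcl12 probe, 1 probe of Ccr2 and Ccl27. Over all probes tested in WAT, 776 were called higher and 716 lower under it, against 4129 and 2954 before. The sign turned for Cxcl2 (0.88), Ccl22 (1.08), Ccr9 (0.80), the second Ccr3 probe (0.77), the called probe of Xcr1 (0.95) and that of Cx3cr1 (0.35), beside an all-probe median of 0.49. Ccl22, a ligand of Ccr4, was at -1.73 (SE 0.36, limma adjusted p = 0.00853) before this change and was well above background on 2 of 5 sg/sg arrays. Also without a call under this correction were Cxcl1 (-0.79), Cxcl10 (-1.01), Ccl3 (-0.87), the first Ccr3 probe (-0.89), Ccr7 (-0.14), Cxcr4 (-0.01), the other Ccr2 probe (-0.16), Ccl25 (1.43) and Ccr10 (1.35). Xcr1 and Cx3cr1 also lost their calls with the replicate number as a block, and Cxcr4 (limma adjusted p = 0.242) and Cx3cr1 (0.0769) when all 20 arrays shared 1 fit. Within slide 4, with 2 WAT arrays of each genotype, limma called 0 member probes (28 at an unadjusted p under 0.05) and 0 of all probes. Of the 26 called probes, 25 had the same sign in all 3 WAT slides.

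Among genes that transmit chemokine signals inside cells, which 60 probes measured for 29 genes, 29 probes were lower in the same samples, 1 was higher and 30 were not called, beside 9.14% lower and 12.8% higher of all probes. Their median was -0.42. Rgs1, which switches off G proteins after receptor activation, read 1.58, 2.66, 0.04, 0.58 and -0.09 in WT mice, against -4.25, -4.05, -4.07, -4.75 and -2.50 in sg/sg WAT. No array overlapped, and its difference (-4.87, SE 0.57, 29.3-fold, limma adjusted p = 8.3e-04) was deeper than that of any member. The phospholipase Plcb2 (-1.29, SE 0.16), the PI3-kinase subunit Pik3r5 (-2.21, SE 0.31) and the leukocyte GTPase Rac2 (-1.26, SE 0.18) were lower as well, and Gnai1, an inhibitory G protein subunit, was higher on 1 probe (0.51, SE 0.15, limma adjusted p = 0.0341). Of 13 probes for chemokines and receptors that carry other names, 4 were lower and 1 higher. Both probes of the chemokine-like factor Cklf (-0.99, SE 0.18 and -0.70, SE 0.17) and of the chemerin-binding receptor Ccrl2 (-0.62, SE 0.16 and -0.58, SE 0.18) were lower, and Blr1 was the higher one. Of 10 probes for other chemoattractants and their receptors, 3 were lower and 1 higher: the complement receptors C3ar1 (-1.85, SE 0.34 and -1.74, SE 0.33) and C5ar1 (-1.28, SE 0.39), and the chemerin receptor Cmklr1 (0.33, SE 0.10).

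Many markers of macrophages and dendritic cells, and fewer of neutrophils, were lower in the same WAT samples. Of all 32315 probes tested in WAT, 9.14% were called lower and 12.8% higher, and 11422 had an unadjusted limma p under 0.05. Of 16 macrophage marker probes 9 were lower and 1 (Timd4) higher, and their summed level, in units of the array's 75th percentile, was 72.4 to 143 in WT and 33.6 to 50.6 in sg/sg WAT. Dendritic cell markers were lower on 7 of 11 probes (sums of 127 to 169 in WT and 41.8 to 119.5 in sg/sg), and neutrophil markers on 3 of 7 (2.13 to 2.45 and 0.76 to 1.53). The other 4 neutrophil probes were above 0 without a call, up to 0.96 for Ela2, and the median of that list was 0.10. Defining members of these lists, such as Cd68 (-1.88, SE 0.33), Itgax (-3.50, SE 0.40 on the called probe) and S100a8 (-2.96, SE 0.24), were well above background in all 5 arrays of both genotypes. By limma 0 of 15 T and NK cell probes were called (0 at an unadjusted p under 0.05; sums of 1.34 to 2.65 and 1.71 to 2.41), 0 of 8 B cell probes (3 unadjusted; 0.79 to 1.29 and 1.01 to 2.31), 0 of 8 lymph node probes (4 unadjusted; 1.33 to 2.63 and 1.91 to 3.1) and 0 of 10 endothelial probes (1 unadjusted; 44.8 to 65.4 and 56.8 to 74.2). Fibroblast and mesothelial markers had 5 probes lower and 2 higher of 13 (214 to 266 and 208 to 263), and adipocyte markers 1 lower and 1 higher of 10 (674 to 1003 and 999.9 to 1375). Hepatocyte markers summed to 0.15 to 7.18 in WT and 0.88 to 4.74 in sg/sg WAT, with 0 of 4 called (0 unadjusted). The part of these cell types in the chemokine values was not tested.

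**Figure D3:**
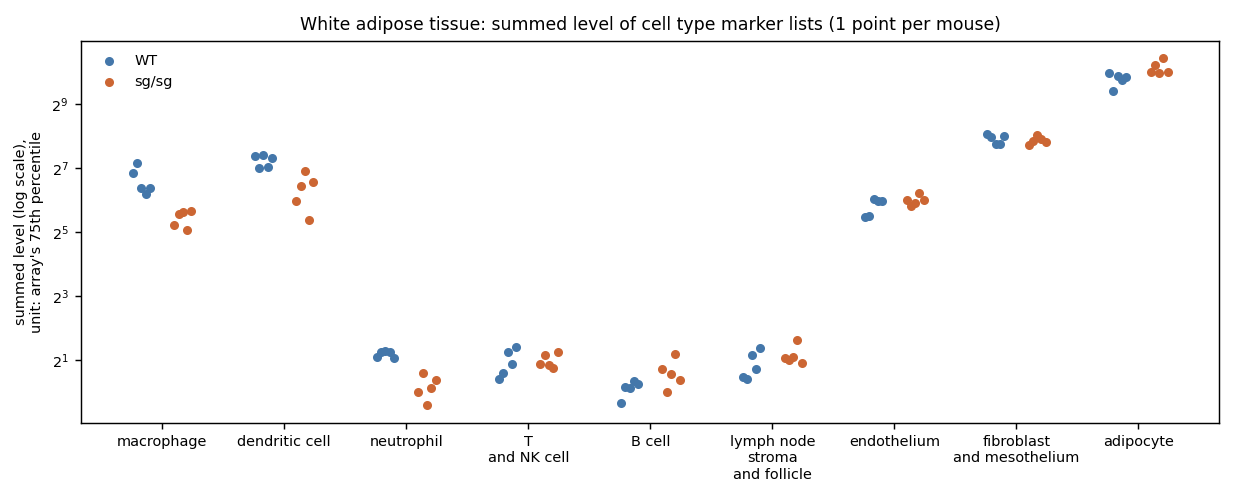
Summed level of each cell type marker list in WAT (y axis, log scale, in units of the array's 75th percentile), 1 point per mouse, WT in blue and sg/sg in orange. The macrophage sums (72.4 to 143 in WT, 33.6 to 50.6 in sg/sg), the dendritic cell sums and the neutrophil sums do not overlap between genotypes, while the sums of T and NK cells, B cells and fibroblasts do.

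In liver the family hardly moved. Of 42 member probes 1 was lower (Cxcl14) and 0 were higher, against 14.6% called of all 24673 probes tested, 6.51% lower and 8.11% higher. An unadjusted limma p under 0.05 was reached by 9 of the 42 and by 7992 of all 24673 probes. With slide as a fixed block 0 members were called, beside 0 higher and 3 lower of all these probes. The median difference was 0.05, beside 0.04 over all probes, and 23 member probes lay above 0 and 19 below. With median scaling the members' median was -0.06 and that of all probes -0.07, and the split of all called liver probes moved from 2000 higher and 1605 lower to 865 higher and 2291 lower. The same probe was the only member whose genotypes did not overlap, where 5.56% of all probes did not overlap in that direction and 6.62% in the other.

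Cxcl14, a constitutive chemokine of epithelia, read -1.56, -0.60, -1.50, -1.65 and -1.89 in WT mice, against -2.09, -3.35, -2.82, -2.08 and -2.62 in sg/sg liver. All sg/sg arrays were below all WT arrays, with a difference of -1.15 (SE 0.29, 2.23-fold, limma adjusted p = 0.0275). The call depended on single arrays: it was lost without WT replicate 3, WT replicate 4, sg/sg replicate 3 or sg/sg replicate 5 (limma adjusted p from 0.0535 to 0.0586), with differences of -1.10 to -1.21. Within slide 2, the only slide with both genotypes, the difference was -0.87 and was not called. In number, 0 member probes were called without WT replicate 3, WT replicate 4 or sg/sg replicate 5 (6, 5 and 8 at an unadjusted p under 0.05), 2 without WT replicate 5 or sg/sg replicate 2, and 4 when sg/sg replicate 3 was left out (all higher, both Ccl24 probes and Ccl6 among them). Calls over all liver probes fell too, from 2000 higher and 1605 lower. They were 751 and 714 without WT replicate 3, 564 and 594 without WT replicate 4, and 1134 and 1095 without sg/sg replicate 5.

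**Figure D4:**
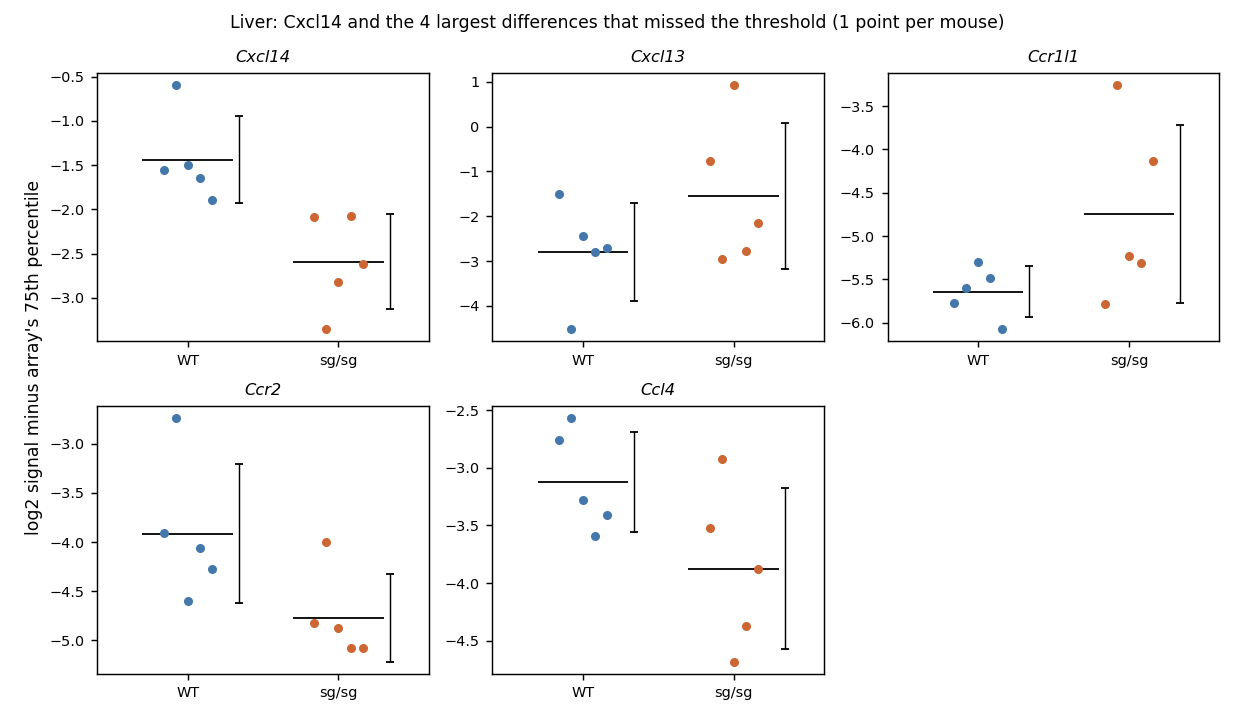
Liver levels (y axis, log2 signal minus the array's 75th percentile, each panel on its own scale), 1 point per mouse, with the mean (line) and SD (bar) of 5 WT and 5 sg/sg mice. Cxcl14 is the only panel whose genotypes do not overlap; Cxcl13, Ccr1l1, Ccr2 and Ccl4 had the largest differences without a call.

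Of the members with the lowest differences in WAT, Ccl8 and the second Ccl7 probe were not tested in liver (well above background on 1 array each), and Ccr3, the first Ccl7 probe and Ccl2 were tested and not called. Ccl2 read -0.70, 0.52, -1.13, -0.87 and -0.96 in WT mice, against -1.41, -0.34, -1.74, -0.83 and -1.18 in sg/sg liver, with WT replicate 2 standing high (-0.47, SE 0.34; -0.20 within slide 2). Adipocyte markers summed to 49.1 on that WT liver array, against 12.6 to 18.3 in the other WT livers and 10.2 to 15.8 in sg/sg livers. The part of adipose tissue in this sample's values was not tested. The Cxcl12 probe that was lower in WAT ranged from 2.19 to 2.83 in WT and from 2.63 to 3.22 in sg/sg liver (0.44, SE 0.16, limma adjusted p = 0.0796), and the other Cxcl12 probe was at 0.21 (SE 0.14). The differences of Cxcl13 (1.24, SE 0.76), Ccr1l1 (0.90, SE 0.42), Ccr2 (-0.85, SE 0.33) and Ccl4 (-0.75, SE 0.32) were the largest without a call. Of these, Cxcl13 had sg/sg replicate 3 at 0.92 and WT replicate 2 at -4.51, and Ccr1l1 was well above background on 2 arrays of each genotype. By limma 0 of 12 receptor probes were called in liver, 3 at an unadjusted p under 0.05. Macrophage markers were higher in sg/sg liver on 4 of 14 probes and lower on none (sums of 53.2 to 85.6 in WT and 65.3 to 112 in sg/sg), beside 8.11% higher and 6.51% lower of all probes. Cd68 was at 0.68 (SE 0.16, limma adjusted p = 0.025). With slide as a fixed block 0 of all liver probes were called higher. The part of macrophages in the liver values was not tested.

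The genotype effect itself was compared between tissues through the genotype by tissue term of a limma model over the 20 arrays. The model took the arrays as independent. The labels do not say whether liver and WAT came from the same mice. The series' design text gives 5 mice per genotype, and each tissue had 5 arrays per genotype. If that number covers both tissues, they came from the same mice. The SE and p hold only if liver and WAT came from different mice. Of the 41 member probes tested in both tissues, 9 had a lower effect in WAT than in liver and 0 a higher one, against 19.9% called of all 24342 probes, 9.38% lower and 10.5% higher. The members' median difference of effects was -0.26, beside 0.03 over all probes. The first Ccl7 probe had the smallest p, with a difference of -2.74 (SE 0.32, limma adjusted p = 2.8e-05), from 0.12 in liver and -2.61 in WAT. The second Ccl7 probe, not tested in liver, had means there of -5.40 in WT and -6.60 in sg/sg mice. Its lower mean in sg/sg liver was unlike the first probe, but it was well above background on only 1 liver array. For the Cxcl12 probe the difference of effects was -1.51 (SE 0.19, limma adjusted p = 4.7e-05), with an effect above 0 in liver. Ccl9 (-2.41, SE 0.38), Ccr3 (-2.62, SE 0.45) and Ccl2 (-2.13, SE 0.45) followed, and Ccl6 (-1.82), Ccr7 (-1.01) and Cxcl10 (-1.16) were called as well. With slide as a fixed block the calls of Ccl9 (-2.0, limma adjusted p = 0.0784), Ccl2 (-2.48, limma adjusted p = 0.0748), Ccl6 and Cxcl10 were lost. With normexp background correction those of Ccr3 (-1.01, limma adjusted p = 0.354), Ccr7 and Cxcl10 were lost. Cxcl1 (-1.66, SE 0.69, limma adjusted p = 0.0964) and Ccl3 (-1.25, SE 0.59, limma adjusted p = 0.147) were lower in WAT alone, without a call on the difference between tissues. With median scaling 8 were lower and 1 higher, with quantile normalization 9 and 1, and with normexp 6 and 0. The 2 tissues were read on different scanners, and tissue and scanner cannot be told apart in the levels.

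**Figure D5:**
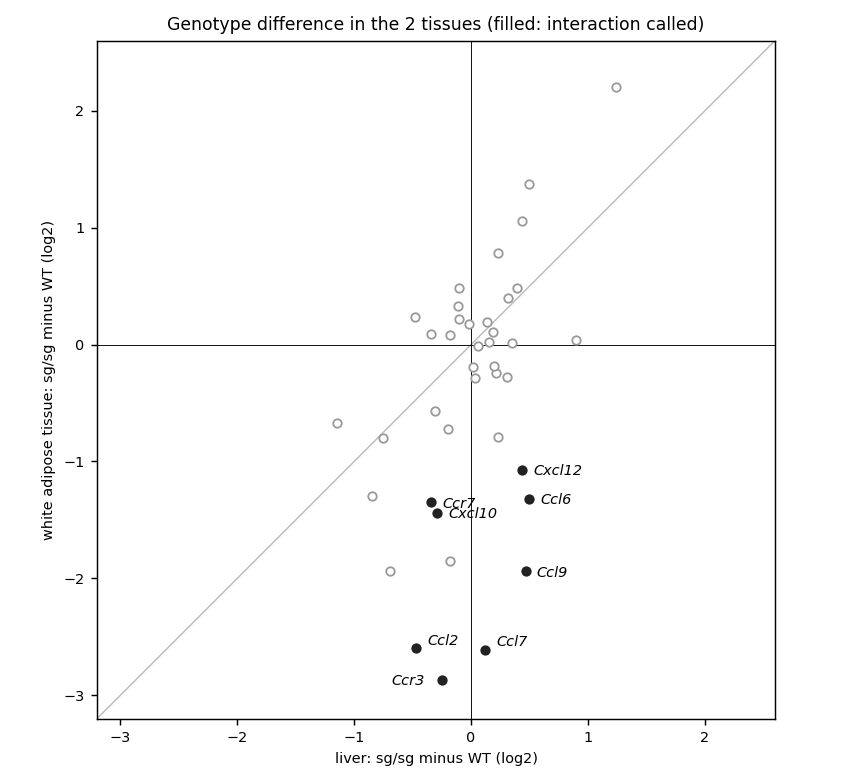
Difference between sg/sg and WT mice (log2) in liver (x axis) and in WAT (y axis) for 40 of the 41 member probes tested in both tissues, with the line of equal differences in grey. The 8 filled points (of 9 probes called), whose effect differed between tissues by the interaction term, all lie below the line, from Cxcl12 and Ccl6 to Ccr3; with median scaling 8 of all 41 were lower and 1 higher.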

How the data were processed

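Liver and WAT RNA of 10 mice per tissue was measured on 20 arrays. Per the file headers, the authors extracted each deposited intensity with Agilent Feature Extraction 9.5.3.1, which subtracts background and replaces signals that are not above it by a surrogate value. The deposited value table held the same linear, uncentred intensities, so no scale, centring or direction stayed unknown. Its column medians, replicates 1 to 5 in order, were 57.4, 64.0, 56.6, 65.6 and 55.5 in WT liver, 55.5, 60.0, 64.9, 43.8 and 42.5 in sg/sg liver, 130.9, 220.8, 158.8, 175.7 and 152.0 in WT WAT and 156.4, 117.0, 149.5, 88.8 and 149.9 in sg/sg WAT. No scaling between arrays is given in the sources used here.

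From the deposited intensity, log2 minus the array's 75th percentile was computed here, with control spots left out, outlier spots set missing and spots of a probe averaged. A probe was tested with 4 or more of 10 arrays well above background and missing on at most 2 (75 values were missing among tested liver probes and 47 in WAT). The genotypes were compared per tissue with lmFit and eBayes of limma 3.58.1 (R 4.3.3), two-sided, and every p of the text was adjusted over all probes tested. The number of arrays limits the precision. Groups and replicate numbers came from the labels. The series' design text gives 5 mice per genotype.

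In every count 1 member gene is included that is not reported here by name or drawn. The members and all gene lists were chosen with earlier results of these data known. Named were all called members, with values per array for the 10 of smallest p in each tissue, 4 ligand and receptor pairs, the 4 largest differences per tissue without a call, other probes of named genes, all Rora probes, the called interaction probes, and up to 4 called probes of each pathway list. Blr1, marker examples, the further called Cklf, C5ar1 and Gnai1 probes and the ROR element matches were named after their values were seen. Of 67 member probes 60 matched a RefSeq gene (GRCm38.p6) by accession, with 3 symbols differing from the array's, and 6 lay on unplaced sequence. Probe positions are those of the files (mm7), for which no annotation was used, so exons are not stated.

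On simulated data with known changes the fits recovered 21.2%, 73.1% and 91% of changes of 0.5, 1 and 2 (log2) among 24673 liver probes, 15.2%, 52.2% and 89.6% among 32315 WAT probes, and 9.09%, 53.7% and 95.5% for the interaction among 24342 probes. Each simulation changed only 66 or 67 probes per size, far fewer than were called in the data. Its noise was independent between arrays, without a slide effect. The rates therefore do not give the share of real changes found here. Alternatives tried were the scaling, normexp background correction (offset 50), the value table, outlier spots kept, the filter on dim probes, 1 probe per gene, slide and replicate number as blocks, each slide alone, a common fit of all arrays, and leaving out each array.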

Additional observations from a re-analysis of the deposited data

Results flagged for a closer look

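Of the 116 groups of 5 arrays examined for the named probes, 14 held an array far from the other 4, where chance alone marks about 1 in 20 groups. In liver, WT replicate 2 stood high for Ccl2 at 0.52 (others -1.13 to -0.70), and sg/sg replicate 2 stood high for Ccr2 at -4.00 (others -5.08 to -4.82). WT replicate 1 of liver stood high for Ccl19 at 1.09 (others 0.79 to 0.87) and on both probes of Ccl5, at 1.83 (others 0.47 to 0.81) and -0.01 (others -1.40 to -1.02).

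In WAT, WT replicate 2 stood low on both Ccr2 probes, at 0.92 (others 2.05 to 2.23) and -3.60 (others -2.49 to -2.39), and for Ccl11 at 2.24 (others 3.14 to 3.20). WT replicate 1 stood high on a Ccl25 probe at -4.10 (others -4.47 to -4.40). Among sg/sg WAT arrays, replicate 1 stood low for Ccl6 at 3.44 (others 4.03 to 4.24) and high for Ccl20 at -4.15 (others -7.89 to -7.18). Replicate 4 stood high on a Cxcr4 probe at -1.25 (others -2.65 to -2.27) and low on the called Cxcl12 probe at 0.21 (others 0.54 to 0.60). Replicate 3 stood high for Cxcl13 at 3.45 (others -2.27 to -0.71).

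The genotype effect differed between the tissues, by the interaction term of limma, for the first Ccl7 probe (-2.74, WAT minus liver), the Cxcl12 probe (-1.51), Ccl9 (-2.41), Ccr3 (-2.62) and Ccl2 (-2.13). With slide as a fixed block the calls of Ccl9 and Ccl2 were lost (limma adjusted p = 0.0784 and 0.0748), and with normexp that of Ccr3 (0.354).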

How the results depend on the processing

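The count of called liver members, 1 in the main analysis, was 3 with normexp, 2 without the filter on dim probes, 2 with probes well above background on all 10 arrays, 2 with all 20 arrays in 1 fit, 0 with slide as a fixed block (1 at an unadjusted limma p under 0.05), and 0 to 4 with 1 array left out. With slide as a fixed block, 0 of all 24673 liver probes were called higher and 3 lower. The count of 26 in WAT was 11 with normexp, 0 within slide 4, and 24 to 28 with 1 array left out. Over all WAT probes, normexp gave 776 higher and 716 lower, and slide 4 alone gave 0 of either. Slide as a fixed block gave 26 in WAT, of which 25 were the same probes. The interaction count of 9 was 15 without the filter, where 67 probes were tested, 5 with slide as a fixed block, and 9 to 11 with 1 array left out. Over all 24342 probes the interaction calls were 408 higher and 362 lower with slide as a fixed block, against 2550 and 2283 in the main analysis. Under normexp the sign turned in WAT for Cx3cr1 (0.35), Cxcl2 (0.88), Ccr9 (0.80), Ccl22 (1.08), a Ccr3 probe (0.77) and Xcr1 (0.95), and the cause was not tested. Within slide 5 Ccr10 was at -0.02. The deposited value table changed no count.

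Same-numbered samples did not deviate together (correlations from -0.14 to 0.17), and the numbers were not taken to pair mice. Liver and WAT of a mouse need not deviate together. The correlations therefore do not tell whether both tissues came from the same mice, under the same or other numbers. With the replicate block 2 liver members were called (Ccl4 and Ccr2, both lower, and not Cxcl14), 23 WAT members, all among the 26, and 10 for the interaction.

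Dim probes limit what can be read: Ccl22, Cxcl2 and 1 Ccr3 probe were well above background on 2, 3 and 4 of 5 sg/sg WAT arrays. In liver, slide and genotype can hardly be told apart, since only slide 2 held both.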

Other observations

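In liver, 2 of 8 probes for chemoattractants outside the family and their receptors were higher in sg/sg mice and 0 lower, beside 8.11% higher and 6.51% lower of all probes. With slide as a fixed block 0 of all liver probes were called higher and 3 lower, so no higher liver call given here held under it. Fpr1, the formyl peptide receptor of myeloid cells, ranged from -1.31 to -0.13 in WT and from -0.33 to 0.76 in sg/sg liver (1.05, SE 0.24, 2.07-fold, limma adjusted p = 0.0215), and Edg1 (now S1pr1), a sphingosine phosphate receptor of endothelium and lymphocytes, from 0.16 to 0.74 and from 1.15 to 1.35 (0.78, SE 0.12, limma adjusted p = 0.00779). Of 12 probes for chemokines and receptors under other names, 2 were higher: 1 of the Cklf probes (0.68, SE 0.16, limma adjusted p = 0.0226) and 1 of the decoy receptor Ccrl1 (0.51, SE 0.15, limma adjusted p = 0.0499). In WAT the same Cklf probe was lower (-0.70).

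Of 50 liver probes for chemokine receptor signalling 10 were higher and 3 lower, beside 8.11% higher and 6.51% lower of all probes. The higher calls were lost with slide as a fixed block, where 0 of all liver probes were called higher. All 3 lower ones belonged to Gnai1 (-2.15, SE 0.42, -1.37, SE 0.31 and -0.54, SE 0.13). The fourth Gnai1 probe was at 0.80 (SE 0.28) and was not called. Dock2, a leukocyte exchange factor for Rac, was higher (0.64, SE 0.12, limma adjusted p = 0.0127) in liver and lower in WAT on the same probe (-1.60, SE 0.26, limma adjusted p = 0.00284). The difference between the tissues was not tested for these genes.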
